A study of Caenorhabditis elegans with 4 samples.

Results

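The col genes are the numbered members of the large family of cuticle collagen genes of Caenorhabditis elegans. Of the 20380 genes in the deposited table, 156 had a WormBase symbol made of col- and a number, and the 134 of these with at least 40 reads over the 4 libraries together are described here. Of the 22 left out, col-7, col-62, col-102, col-126 and col-127 had 0 reads in every library, which allows up to 3 reads in each. The members nearest to the minimum were col-2 with 40 reads and col-148 with 42 reads, while col-164 with 39 and col-116 with 37 lay just below it.

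Wild-type N2 worms were kept at 20°C from the L1 to the L4 stage and fed bacteria producing double-stranded RNA of xrn-2, which encodes a nuclear exoribonuclease, or mock bacteria with the empty L4440 vector. The strain was the same in both conditions. Poly(A) RNA of 2 cultures per condition was sequenced, giving mock 1 and 2 and xrn-2(RNAi) 1 and 2, of which the 2 libraries with the same number form a replicate. The xrn-2(RNAi) cultures were collected after more hours on the food than the mock cultures, and the stage was set by vulval morphology. According to the methods, a separate time course of L4 larvae, not analysed here, placed mock 1 and xrn-2(RNAi) 1 at the same early point. It placed xrn-2(RNAi) 2 later and mock 2 latest. The sequence mock 1, xrn-2(RNAi) 1, xrn-2(RNAi) 2, mock 2 is called the larval order below. Mock 1 is put first by convention, so a step from it to xrn-2(RNAi) 1 is one between conditions and not in matched larval time. The scaled count of xrn-2 was 4247 in mock 1 and 5265 in xrn-2(RNAi) 1, and 6192 in mock 2 and 6032 in xrn-2(RNAi) 2, so it was higher upon RNAi in replicate 1 and nearly equal, with a log2 difference of -0.04, in replicate 2. The paper reports that xrn-2 mRNA accumulates when XRN2 activity is reduced, so this count does not measure how far XRN2 was depleted. The libraries are therefore named by their labels throughout, and a difference between conditions is one between libraries so labelled.

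The cuticle is made anew by the epidermis before each molt. It consists mostly of small collagens, which are cut by proteases, hydroxylated on prolines and cross-linked outside the cell. Individual collagen genes are transcribed in bursts at fixed times within a molting cycle, and some are used in the adult cuticle and not in the larval ones. The best known of these is col-19, whose promoter is used as a marker of the adult epidermis and is controlled by the transcription factor LIN-29. The other named example here, col-129, is the downstream gene of an operon with dlc-2, a dynein light chain gene.

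Totals per library lay between 41105706 and 48451504 reads. Counts were scaled to the mean total of 43719995 reads, and a log2 difference always refers to scaled counts plus 8. A difference between 1 library and 1 other has no replicate check. Of the marker lists for other tissues, the 4 genes each for body wall muscle, neurons and sperm held 0 genes that differed by 2-fold or more between the mock libraries. The pharynx list held 1 higher gene in mock 2, the intestine list 1 higher and 1 lower gene, and the germline list 2 higher genes, gld-1 and glp-1. Over all 16196 genes with at least 40 reads, 9.83% were higher and 17.6% lower by this measure. The summed scaled count of the 4 germline markers was 50930 in mock 1, 80614 in xrn-2(RNAi) 1, 93927 in xrn-2(RNAi) 2 and 93138 in mock 2.

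The epidermis list did not move as one. Its 6 genes, of which dpy-7, rol-6 and sqt-3 encode cuticle collagens themselves, summed to 158970 scaled reads in mock 1, 91333 in xrn-2(RNAi) 1, 46653 in xrn-2(RNAi) 2 and 3457 in mock 2. Between the mock libraries 4 of the 6 were lower by 2-fold or more in mock 2 (17.6% of all genes), namely dpy-7, rol-6, sqt-3 and wrt-10. Of the genes in the list that are not cuticle collagens, wrt-10 had 6240 scaled reads in mock 1 and 61.4 in mock 2. In contrast, grd-10 was higher in mock 2, with 217 in mock 1 and 1009 in mock 2. The transcription factor gene elt-3 of the same tissue had 1248 scaled reads in mock 1 and 1861 in mock 2, with 634 and 371 in xrn-2(RNAi) 1 and 2. For the seam cells, egl-18 was detected at 300 to 486 scaled reads, nhr-73 had 0 reads in 3 libraries and 5 in xrn-2(RNAi) 1, and the name elt-5 was not matched. Less epidermis and less RNA per epidermal cell cannot be told apart in these bulk samples, and the part of either in the results was not tested.

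The collagens took a share of the libraries that differed more in kind than in size. All 134 members together held 2.56% of the reads of mock 1, 1.57% of xrn-2(RNAi) 1, 1.91% of xrn-2(RNAi) 2 and 4.57% of mock 2. Between the mock libraries, 49 members were at least 2-fold higher in mock 2, which 9.83% of all 16196 genes with at least 40 reads were, 49 were at least 2-fold lower, against 17.6% of all genes, and 36 differed by less. These sets are called late, early and even members below, by the larval order of the mock libraries. As the mock libraries chose them, their mock values are a description. Late members held 0.0741% of the reads of mock 1 and 4.43% of those of mock 2. Early members held 2.38% of mock 1 and 0.0523% of mock 2. The set that supplied nearly all collagen reads was thus a different one in each mock library, and the even members stayed between 0.0931% and 0.239% in all 4 libraries.

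**Figure D1:**
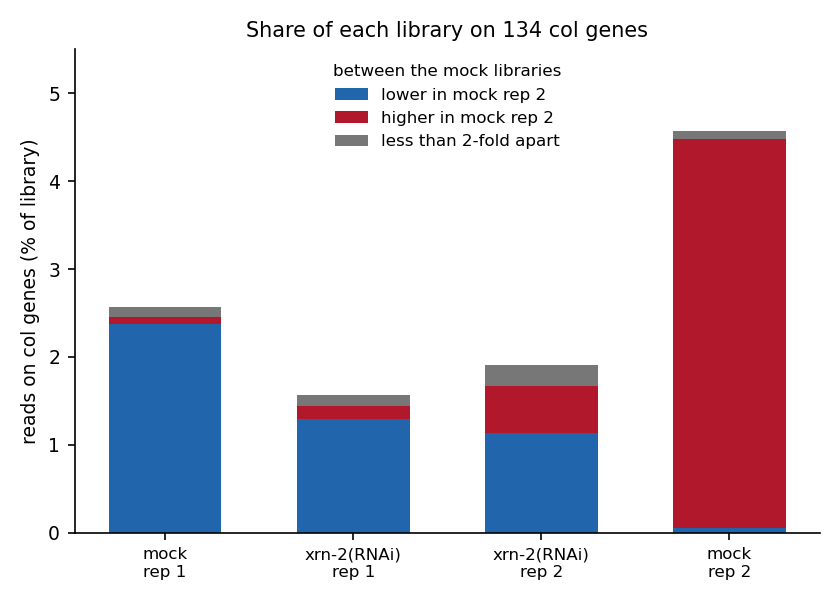
Reads on the 134 col genes as a percentage of all counted reads (vertical axis) in each of the 4 libraries, which stand in larval order; colours give the late members (higher in mock rep 2), early members (lower in mock rep 2) and even members (less than 2-fold apart). Early members fill 2.38% of mock 1 and late members 4.43% of mock 2, and both libraries labelled xrn-2(RNAi) hold mostly early members.

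The spread of the family between the mock libraries was wide. The log2 difference between mock 2 and mock 1 ran from -7.89 to 12.37 with an SD of 4.81 over the 134 members, against an SD of 1.62 over all 16196 genes. The medians were -0.01 and -0.16. For xrn-2(RNAi) 2 minus xrn-2(RNAi) 1 the SD was 1.32 over the members and 0.81 over all genes. The members were thus spread more widely than other genes in both pairs of libraries, and more so in mock.

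The adult collagen col-19 (WBGene00000608, on chromosome X) had 32 reads in mock 1, 1670 in xrn-2(RNAi) 1, 9628 in xrn-2(RNAi) 2 and 89974 in mock 2. Scaled, these were 34.0, 1507, 9716 and 93662. The gene stood lowest in mock 1 and highest in mock 2, and each library in larval order exceeded the one before it. Its scaled count was 44.3-fold higher in xrn-2(RNAi) 1 than in mock 1, although the methods place both at the same time, and in xrn-2(RNAi) 2 it was 10.4% of that in mock 2. The log2 difference between xrn-2(RNAi) and mock was 5.17 in replicate 1 and -3.27 in replicate 2, so the replicates had opposite signs. The 2 mock values enclosed both xrn-2(RNAi) values, and the groups overlapped. The quasi-likelihood test of edgeR, fitted to all 4 libraries, gave a log2 fold change of 0.75 upon RNAi (SE 4.86, adjusted p = 0.974) and of 6.99 between replicate 2 and replicate 1 (SE 3.65, adjusted p = 0.533).

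The operon gene col-129 (WBGene00000703, chromosome IV) had the same order of libraries, with 219 reads in mock 1, 4009 in xrn-2(RNAi) 1, 20849 in xrn-2(RNAi) 2 and 178266 in mock 2. Scaled, the values were 233, 3618, 21039 and 185573. Mock 2 exceeded mock 1 by 797-fold, and xrn-2(RNAi) 1 exceeded mock 1 by 15.5-fold. The log2 difference upon RNAi was 3.91 in replicate 1 and -3.14 in replicate 2, and in edgeR's fit it was 0.12 (SE 3.29, adjusted p = 0.994). For replicate 2 against replicate 1 the fit gave 6.08 (SE 2.85, adjusted p = 0.522). Its operon partner dlc-2 did not share this range. Scaled counts of dlc-2 were 535 in mock 1, 615 in xrn-2(RNAi) 1, 510 in xrn-2(RNAi) 2 and 740 in mock 2.

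Other late members with a wide range followed the same order. Among members averaging 50 scaled reads or more, the largest excess of mock 2 over mock 1 was that of col-119, with scaled counts of 9.57 in mock 1, 502 in xrn-2(RNAi) 1, 4372 in xrn-2(RNAi) 2 and 92734 in mock 2. For col-8 they were 6.38, 102, 796 and 36713, and for col-81 they were 60.6, 2318, 13715 and 144258. These 3 genes were named for their large excess of mock 2 over mock 1, so only their xrn-2(RNAi) values were free. In each gene both of those values lay between the mock values. Col-8 overlaps lgc-38 on the other strand and the counting is not stated to use strand, so its reads may be shared. A further late gene, col-143, had 1 read in mock 1, 11 in xrn-2(RNAi) 1, 324 in xrn-2(RNAi) 2 and 6430 in mock 2, and its exon also overlaps a gene on the other strand.

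Corrected for exon length and depth, in reads per kilobase of exon and 1e6 reads (RPKM), the late genes with the highest mean level were col-122 (1071), col-139 (1034) and col-129 (966). The scaled counts of col-122 were 2940 in mock 1, 4144 in xrn-2(RNAi) 1, 15934 in xrn-2(RNAi) 2 and 156248 in mock 2. Those of col-139 were 305, 2983, 17011 and 159271. In RPKM, col-122 (3734) and col-139 (3669) were close to each other in mock 2, whereas in mock 1 col-122 (70.3) stood above col-139 (7.03) and col-129 (4.28).

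**Figure D2:**
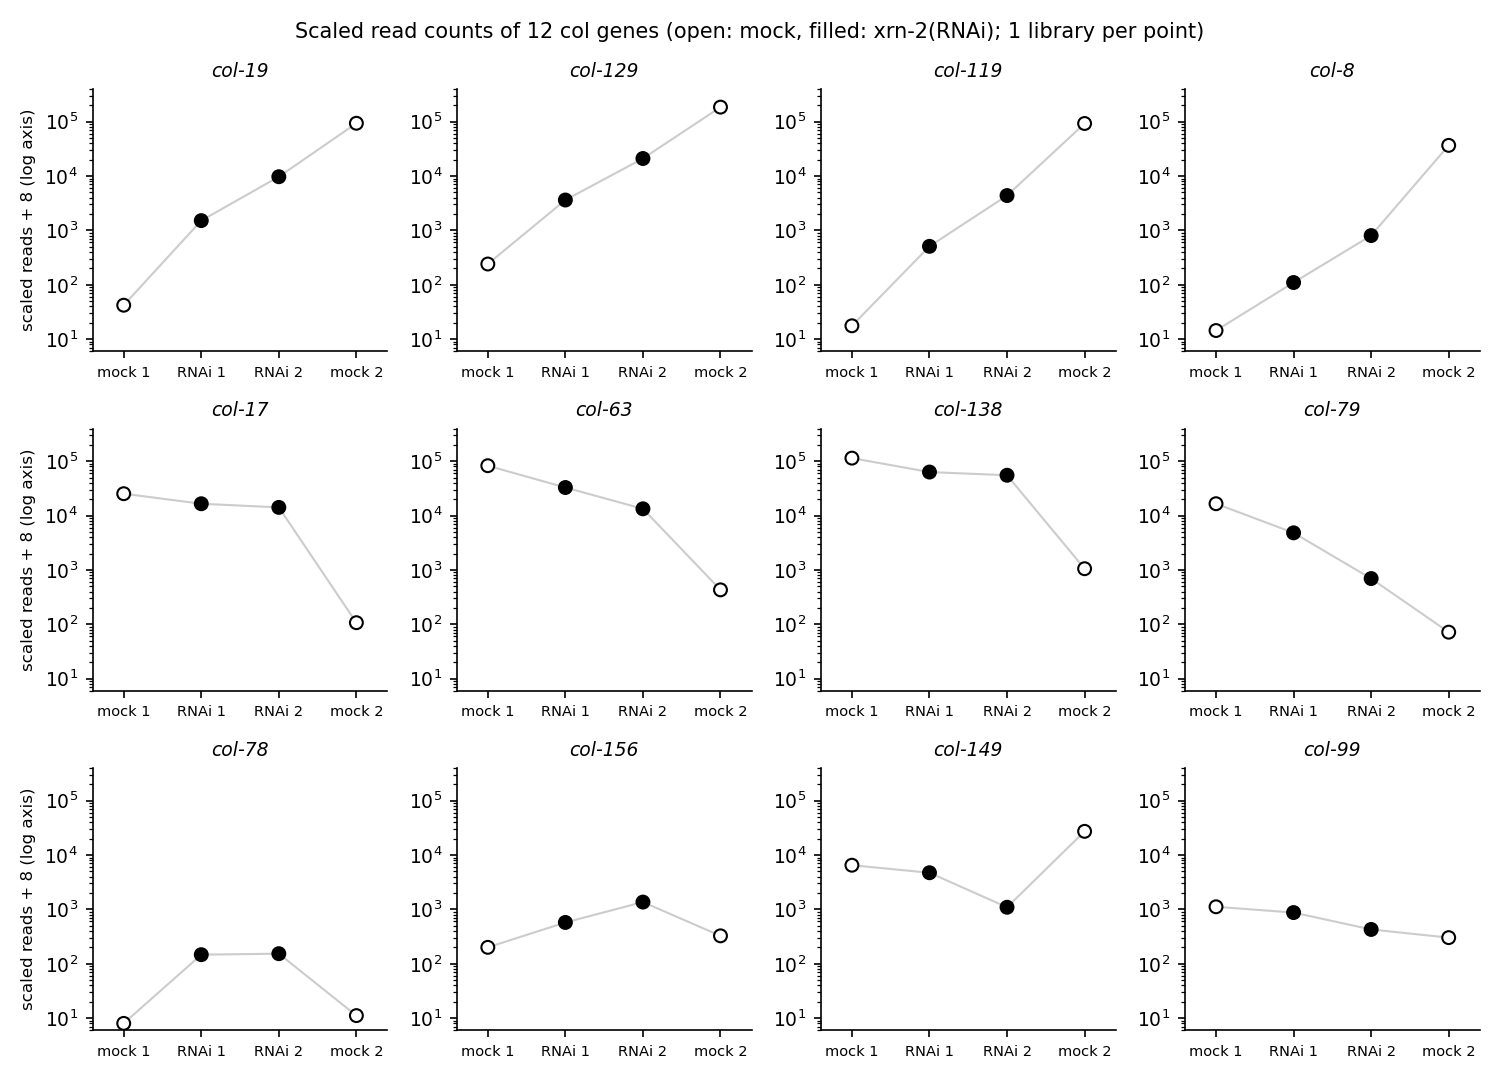
Scaled read counts plus 8 (vertical log axis) of 12 col genes in the 4 libraries in larval order, with mock libraries as open and libraries labelled xrn-2(RNAi) as filled points, 1 library per point. The top row shows late genes such as col-19, the middle row early genes such as col-17, and the bottom row col-78 and col-156, with the mock libraries below both xrn-2(RNAi) libraries, beside col-149 and col-99.

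Some long-known epidermal collagens were late with a smaller range. The promoter of col-12 is used to express transgenes in the epidermis, and its scaled counts were 323 in mock 1, 465 in xrn-2(RNAi) 1, 1142 in xrn-2(RNAi) 2 and 2488 in mock 2. The neighbouring col-13 is nearly identical to col-12, so that reads may be split between them, and it had 158, 255, 663 and 2396. Both followed the larval order, with mock 2 above mock 1 by 7.70-fold and 15.1-fold. Another late gene, col-133, had 7352, 6323, 15669 and 48380 scaled reads in mock 1, xrn-2(RNAi) 1, xrn-2(RNAi) 2 and mock 2.

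The early members were the most abundant collagens of mock 1. In RPKM, col-138 had the highest mean of all members (1578), with 3082 in mock 1, 1709 in xrn-2(RNAi) 1, 1492 in xrn-2(RNAi) 2 and 28.2 in mock 2. The levels of col-38 were 2599, 1647, 1396 and 21.4, and those of col-71 were 1822, 1197, 1046 and 18.4. In all 3 genes the xrn-2(RNAi) libraries were near each other, at 48.4% to 65.7% of mock 1, and mock 2 stood far below the other 3 libraries. Each library in larval order was lower than the one before it, with the widest step between xrn-2(RNAi) 2 and mock 2.

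Among members averaging 50 scaled reads or more, those lowest in mock 2 relative to mock 1 were col-17, col-79, col-63, col-109, col-73 and col-49. The larval collagen col-17 (WBGene00000606, chromosome II) had scaled counts of 25253 in mock 1, 16495 in xrn-2(RNAi) 1, 14132 in xrn-2(RNAi) 2 and 98.9 in mock 2. Those of col-79 were 16515, 4804, 685 and 63.5. The xrn-2(RNAi) 2 value of col-17 was thus near that of xrn-2(RNAi) 1, while that of col-79 was well below it. For col-63 the values were 82695, 32815, 13303 and 422. In edgeR's fit the log2 fold change between replicate 2 and replicate 1 was -4.07 for col-17 (SE 3.11, adjusted p = 0.618), -5.37 for col-79 (SE 1.75, adjusted p = 0.520) and -4.45 for col-63 (SE 2.27, adjusted p = 0.530).

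**Figure D3:**
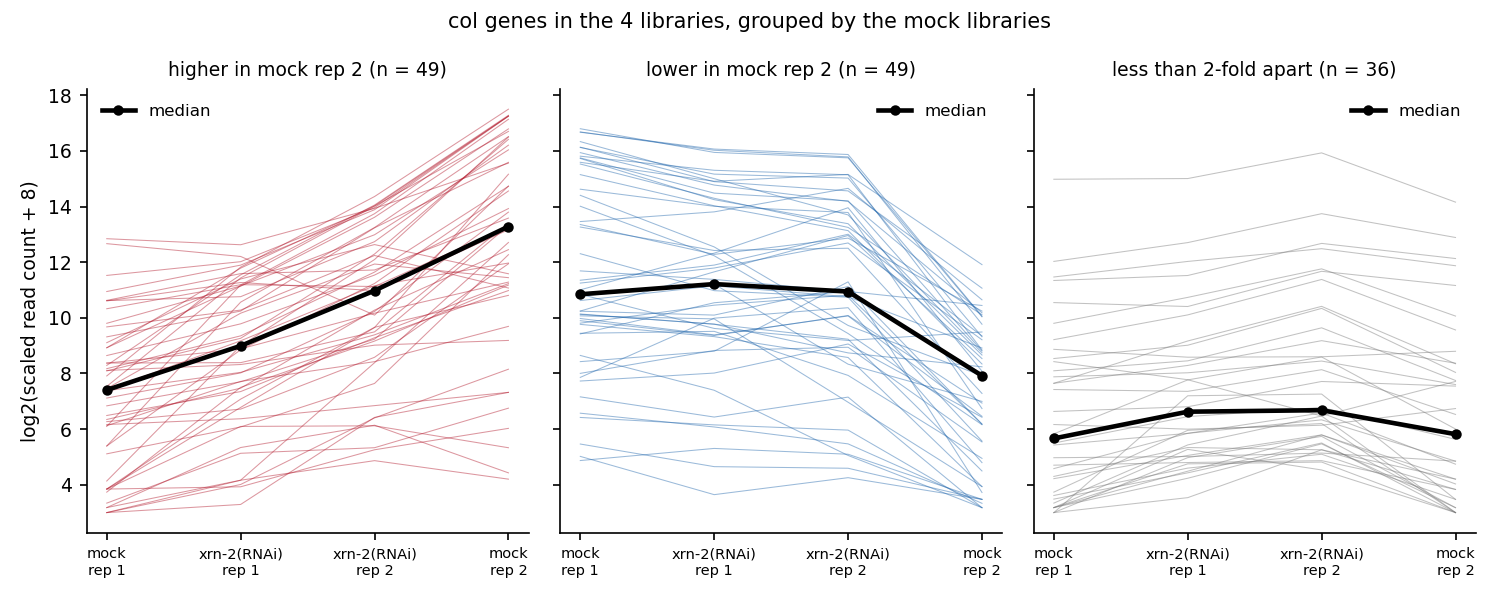
Log2 of the scaled read count plus 8 (vertical axis) of each of the 134 col genes in the 4 libraries in larval order, in 1 panel each for late, early and even members; thin lines are genes and the thick line with points is their median. The panels were formed from the first and last point of each line, so that only the 2 middle points are free, and late members lie higher in xrn-2(RNAi) 2 than in xrn-2(RNAi) 1 in 46 of 49 cases.

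The larval order can be read between the 2 xrn-2(RNAi) libraries, which had no part in forming the sets. Of the 49 late members, 46 were higher in xrn-2(RNAi) 2 than in xrn-2(RNAi) 1, with a median log2 difference of 1.93 (quartiles 1.24 and 2.51). Over all genes late in the same sense, 90.5% were higher, with a median of 0.88. The late collagens thus had the same direction as other late genes. Their median was larger, but so was their median log2 difference between the mock libraries, at 5.59 against 1.82 over all late genes. The 3 exceptions, named after their values were seen, were col-149, col-98 and col-103. Of the 49 early members, 30 were lower in xrn-2(RNAi) 2, with a median of -0.20 (quartiles -0.61 and 0.59), against 72.7% and a median of -0.37 over all early genes. The direction of the early collagens between these libraries was therefore mixed. Early members lower by 2-fold or more in xrn-2(RNAi) 2 numbered 9, among them col-79, col-63 and, named after their values were seen, col-110, col-128 and col-176. A further 6, among them col-65 and, named in the same way, col-41 and col-90, were higher by 2-fold or more.

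Across the 134 members, the difference between the mock libraries and that of the libraries labelled xrn-2(RNAi), which share no library, correlated with a Pearson's r of 0.77 and a Spearman's rho of 0.77. Over all 16196 genes the coefficients were 0.55 and 0.49. Genes are not independent and these are descriptions without a p-value. At least 2-fold higher in xrn-2(RNAi) 2 than in xrn-2(RNAi) 1 were 57 members (8.65% of all genes), and at least 2-fold lower were 11 (6.17% of all genes). The even members were mostly higher as well, 33 of 36 of them, with a median log2 difference of 0.77. Over all genes even in the same sense, 58.7% were higher, with a median of 0.096.

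**Figure D4:**
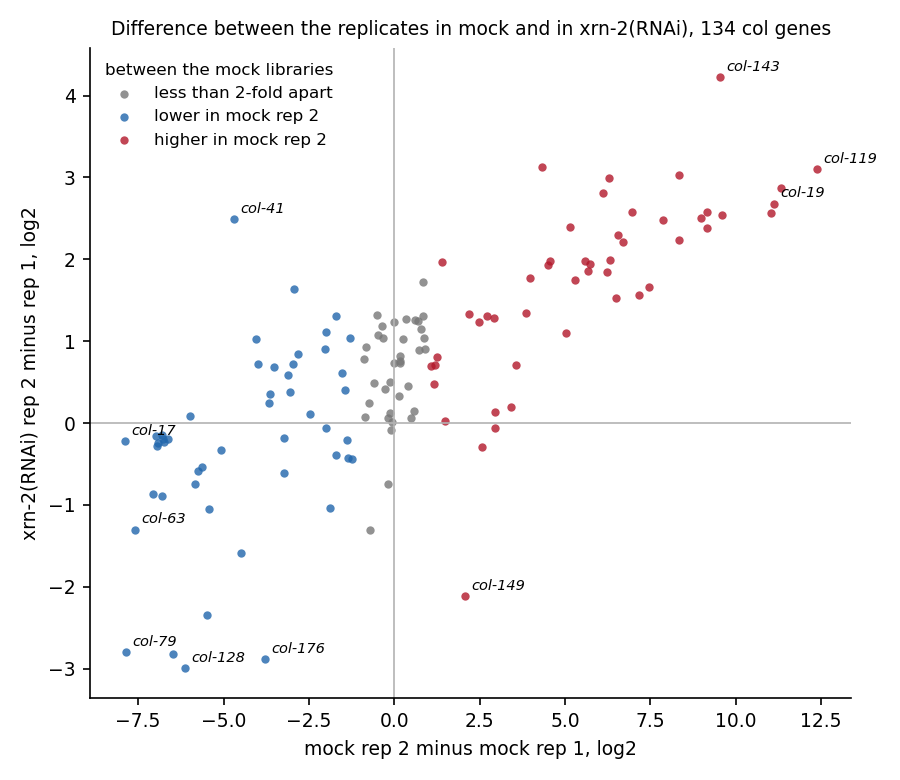
Log2 difference between the mock libraries (horizontal axis, replicate 2 minus 1) and between the libraries labelled xrn-2(RNAi) (vertical axis, replicate 2 minus 1) for 134 col genes, coloured as late, early or even members. The points run from lower left to upper right (r = 0.77), late genes lie above 0 on the vertical axis in 46 of 49 cases, and col-149 and col-41 lie off the diagonal.

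In the full order of the 4 libraries, 39 members had successively higher values along mock 1, xrn-2(RNAi) 1, xrn-2(RNAi) 2 and mock 2, an order shown by 3.92% of all genes. The reverse order was shown by 25 members and by 12% of all genes. Both libraries of replicate 2 exceeded both of replicate 1 in 50 members, against 16.1% of all genes, and lay below them in 29, against 23.3%. The lowest value of a member was in mock 2 for 65 genes and in mock 1 for 62, so that it fell on a mock library in nearly every member. The highest value was in mock 1 for 33 members, in mock 2 for 44, in xrn-2(RNAi) 2 for 51 and in xrn-2(RNAi) 1 for 6. Shares over all genes are not given for these lowest and highest values, so the counts are not read as particular to collagens.

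Tested across all 16178 genes that passed the filter on low counts, 0 of the 133 members in the fit, which left out col-2, had an adjusted p under 0.05 between replicate 2 and replicate 1 in edgeR's quasi-likelihood test, as had 0.0% of all genes. At an unadjusted p under 0.05, 20 members were higher in replicate 2 (5.27% of all genes) and 8 lower (4.04% of all genes). DESeq2 with the same design called 28 members higher (8.0% of all genes) and 9 lower (6.84% of all genes) at an adjusted p under 0.05, with adjusted p-values of 0.0428 for col-19, 0.0836 for col-129 and 0.0197 for col-79. Replicate number and larval time cannot be told apart in this comparison. The fit has 1 residual degree of freedom and a common dispersion of 0.21, and a gene that was not called is not shown to be level.

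Upon xrn-2 RNAi, many collagens differed from mock in opposite directions in the replicates. In replicate 1, 42 members were at least 2-fold higher in xrn-2(RNAi) 1 than in mock 1 (12.9% of all genes) and 14 at least 2-fold lower (6.42% of all genes). In replicate 2, 73 were higher (22.4% of all genes) and 39 lower (6.24% of all genes). The median log2 difference of the members was 0.54 and 1.25, against 0.17 and 0.37 over all genes. With TMM scaling the medians of all genes were 0.01 and 0.00, so that part of each value is common to the libraries.

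The signs were often reversed from 1 replicate to the other. In 20 members the library labelled xrn-2(RNAi) was 2-fold or more above mock in replicate 1 but 2-fold or more below it in replicate 2, col-19, col-129, col-81, col-119 and col-8 among them, a pattern that 0.531% of all genes had. The opposite pattern was shown by 12 members and by 1.8% of all genes, and col-63, col-79, col-109 and col-49 belonged to it. Across members, the differences of the 2 replicates, which share no library, correlated with an r of -0.47, against 0.36 across all genes. In late members the median was 1.13 in replicate 1 and -2.35 in replicate 2, and in early members it was -0.53 and 3.61. The same mock libraries formed these sets, so the medians are given without further reading.

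**Figure D5:**
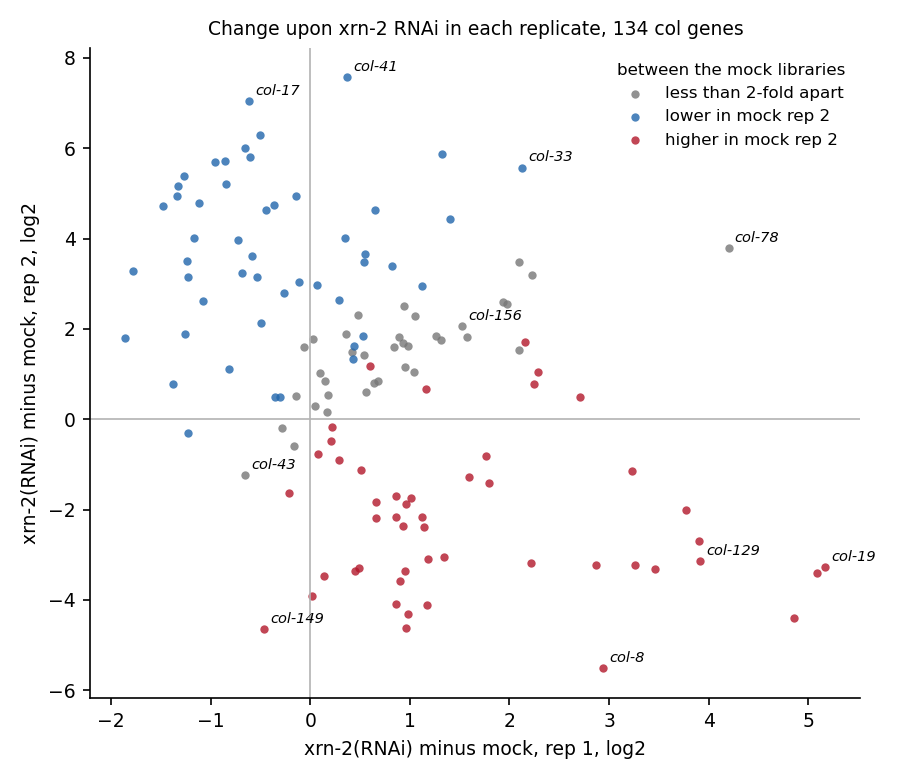
Log2 difference between the library labelled xrn-2(RNAi) and mock in replicate 1 (horizontal axis) and replicate 2 (vertical axis) for 134 col genes, coloured as late, early or even members. Late genes such as col-19 lie at the lower right (5.17 and -3.27), early genes such as col-17 at the upper left, and the members higher in both replicates, col-78 foremost, at the upper right; the colours were set with the mock libraries that both axes use.

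Other members were higher upon RNAi in both replicates. Both libraries labelled xrn-2(RNAi) exceeded both mock libraries in 41 members, a class that held 35.5% of all genes, and 26 of the 41 were even members. At least 2-fold higher in each replicate were 18 members (7.46% of all genes), and at least 2-fold lower in each were 0 (2.2% of all genes). The share of members in the first class lay near that of all genes, while that past 2-fold in each replicate exceeded it. Many of these 18 members averaged under 50 scaled reads and had few mock reads. For example, col-9 had 1, 34, 15 and 0 reads in mock 1, xrn-2(RNAi) 1, xrn-2(RNAi) 2 and mock 2. Those of col-52 were 2, 39, 80 and 0. Such genes met the minimum of summed reads through their xrn-2(RNAi) libraries. The share of all genes at 50 mean scaled reads is not given, so the excess is not read as particular to collagens.

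The most distinct of the members higher in both replicates was col-78. It had 0 reads in mock 1, 154 in xrn-2(RNAi) 1, 144 in xrn-2(RNAi) 2 and 3 in mock 2. Set against a floor of 3 reads for the 0 of mock 1, the excess upon RNAi was at least 43.6-fold in replicate 1. In replicate 2 the observed ratio was 46.5-fold, which rests on the 3 reads of mock 2 and is no lower bound. Its groups did not overlap, and the libraries of each condition were close to each other. For col-78 edgeR gave a log2 fold change of 6.24 (SE 1.15, adjusted p = 0.255) and DESeq2 an adjusted p of 1.54e-06.

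Of the other members higher in both replicates, col-152 had scaled counts of 48.9 in mock 1, 210 in xrn-2(RNAi) 1, 378 in xrn-2(RNAi) 2 and 56.2 in mock 2. Those of col-156 were 193, 568, 1356 and 319. Both genes were separated between the conditions in all 4 libraries. The mock libraries of col-156 differed by 1.66-fold and those of col-152 by 1.15-fold. Their log2 fold changes in edgeR's fit were 2.16 for col-152 (SE 0.47, adjusted p = 0.276) and 1.55 for col-156 (SE 0.34, adjusted p = 0.279). The exons of col-156 overlap those of mig-17 on the opposite strand.

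The early genes col-33 and col-65 were also above both mock libraries in both libraries labelled xrn-2(RNAi). Scaled counts of col-33 were 224 in mock 1, 1008 in xrn-2(RNAi) 1, 1311 in xrn-2(RNAi) 2 and 19.8 in mock 2, and those of col-65 were 1206, 3214, 7968 and 363. In these genes the mock values were 11.4-fold and 3.32-fold apart, so the size of the difference depended on the replicate. Col-10, whose promoter is used to express transgenes in the epidermis, had 364, 510, 1289 and 255 scaled reads. Of the genes known from dauer larvae, col-40 had 1 read in mock 1, 16 in xrn-2(RNAi) 1, 47 in xrn-2(RNAi) 2 and 8 in mock 2, and col-2 had 0, 4, 30 and 6.

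Over both replicates, 0 of 133 members had an adjusted p under 0.05 for RNAi against mock in edgeR's test, as had 0.0% of all genes. At an unadjusted p under 0.05, 19 members were higher (6.66% of all genes) and 1 was lower (5.83% of all genes). With DESeq2, 19 members were higher (8.07% of all genes) and 1 lower (8.9% of all genes) at an adjusted p under 0.05. Among the 19 were col-52, col-72, col-74, col-121 and col-171, named after their values were seen, each with at most 5 reads in either mock library. The lower gene was col-153, with scaled counts of 1835 in mock 1, 779 in xrn-2(RNAi) 1, 575 in xrn-2(RNAi) 2 and 712 in mock 2, where xrn-2(RNAi) 1 and mock 2 overlapped.

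Members with lower values upon RNAi in both replicates were few. Both libraries labelled xrn-2(RNAi) were below both mock libraries in 3 members, col-149, col-68 and col-53, against 10.3% of all genes. Scaled counts of col-149 were 6498 in mock 1, 4721 in xrn-2(RNAi) 1, 1088 in xrn-2(RNAi) 2 and 27316 in mock 2 and xrn-2(RNAi) 2 held 3.98% of the value of mock 2. Its edgeR log2 fold change was -2.82 (SE 1.48, adjusted p = 0.556). Col-68 was nearly level, with 459, 376, 380 and 437 scaled reads. Col-43 had 336, 211, 80.7 and 202, and its value was lower in each replicate by 0.65 and 1.24 on the log2 scale, with xrn-2(RNAi) 1 above mock 2. The differences of these genes thus ranged from small to large.

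One member is no cuticle collagen. Col-99 encodes a transmembrane collagen that acts in axon guidance, and its exons overlap those of daf-1 on the other strand. It had scaled counts of 1109 in mock 1, 867 in xrn-2(RNAi) 1, 420 in xrn-2(RNAi) 2 and 295 in mock 2. Each library in larval order was lower than the one before it, with a log2 difference between the mock libraries of -1.89 and an edgeR log2 fold change between the replicates of -1.47 (SE 0.37, adjusted p = 0.520).

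Cuticle collagens that carry the names of their mutant shapes mostly had the pattern of the early col genes. Of 19 such genes, 17 were at least 2-fold lower in mock 2 than in mock 1 (17.6% of all genes). The median log2 difference was -7.44 over the 19, against -0.01 over the col members. In replicate 2 all 19 were at least 2-fold higher in xrn-2(RNAi) 2 than in mock 2 (22.4% of all genes). Their median there was 4.35, while the median in replicate 1 was -0.55. The collagen sqt-3, for example, had scaled counts of 106062 in mock 1, 51244 in xrn-2(RNAi) 1, 28032 in xrn-2(RNAi) 2 and 363 in mock 2. The furrow collagens dpy-2, dpy-3, dpy-7, dpy-8, dpy-9 and dpy-10 were already low in xrn-2(RNAi) 2. Scaled counts of dpy-7 were 8952, 5082, 573 and 25, whereas dpy-13 had 91018, 69495, 65499 and 691. The exceptions among the 19 were dpy-14 and dpy-17, whose scaled reads were 13.8 and 23.4 in mock 1 but 131 and 140 in xrn-2(RNAi) 2. Basement membrane collagens are not part of the cuticle. Of these, emb-9 and let-2 had a narrow range, with 53424 to 63436 and 81238 to 96004 scaled reads. The type XVIII collagen gene cle-1 ranged from 1732 to 4053 and was higher in mock 2 than in mock 1 by a log2 difference of 1.22.

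Several genes that process collagens were also lower in mock 2. Of 10 such genes, 5 were at least 2-fold lower in mock 2 than in mock 1 (17.6% of all genes). These were dpy-18 and phy-2, which encode the catalytic subunits of prolyl 4-hydroxylase, pdi-2, which encodes its other subunit, the procollagen protease gene dpy-31 and the prolyl isomerase gene fkb-3. Scaled counts of dpy-18 were 17217 in mock 1, 14361 in xrn-2(RNAi) 1, 8146 in xrn-2(RNAi) 2 and 1496 in mock 2. Those of fkb-3 were 20103, 7279, 3273 and 438. The prolyl 4-hydroxylase gene phy-3 was higher in mock 2, and the furin gene bli-4, the dual oxidase gene bli-3, its partner tsp-15 and the peroxidase gene mlt-7 differed by less than 2-fold. The 10 genes together were at 216589 scaled reads in mock 1 and 67195 in mock 2, of which pdi-2 alone held 145167.5 and 46766.5. The early collagens together were at 1040740 and 22874, the late ones at 32397 and 1936330, and all 134 members at 1120640 and 1999900.

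Of 12 regulators of molting and of the larval-to-adult switch, 5 were at least 2-fold lower in mock 2 than in mock 1 (17.6% of all genes). In the same list 2 were higher (9.83% of all genes). The gene of LIN-29 had scaled counts of 3333 in mock 1, 1688 in xrn-2(RNAi) 1, 1062 in xrn-2(RNAi) 2 and 933 in mock 2, opposite in direction to col-19, and that of its cofactor MAB-10 had 2980, 1992, 946 and 714. The gene of LIN-41, which represses lin-29 and mab-10, had 890, 3906, 11844 and 8110. The period homolog gene lin-42 had 14719, 8928, 3107 and 247. The lists for collagen processing, regulators, other cuticle collagens and basement membrane collagens held 44 genes. For RNAi against mock and for replicate 2 against replicate 1, edgeR's test called 0 of them at an adjusted p under 0.05. At an unadjusted p under 0.05, 1 was higher (6.66% of all genes) and 3 lower (5.83% of all genes) upon RNAi. In replicate 2, 3 were higher (5.27% of all genes) and 12 lower (4.04% of all genes). At an adjusted p under 0.05, DESeq2 called 2 higher (8.07% of all genes) and 4 lower (8.9% of all genes) upon RNAi. It called 3 higher (8.0% of all genes) and 16 lower (6.84% of all genes) in replicate 2.

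Position in the genome was not used to form the sets. By chromosome, 9 of 12 members on III and 15 of 29 on V were late, while 18 of 33 on IV and 9 of 16 on I were early, against 49 of each among 134. By the reference annotation, 21 pairs of members were next to each other, and the genes of 13 pairs belonged to the same set. In 3 pairs, all on chromosome II and on the same strand, a late gene was next to an early one, namely col-17 with col-20, col-20 with col-73, and col-79 with col-39. Between the mock libraries, the log2 differences were -7.89 for col-17, 7.87 for col-20 and -6.97 for col-73, so that adjacent genes stood at opposite ends of the family. Median exon lengths were 1031 bases for late, 1011 for early and 986 for even members, while the median of the mean scaled counts was 3162 for late, 2202 for early and 71.1 for even members.

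By the distance of centred log2 values over the 4 libraries, the genes of the table most like col-19, out of 13967 averaging 50 scaled reads or more, were col-81 (distance 0.15), vit-6 (0.75), vit-2 (0.83), col-119 (1.18) and col-129 (1.23). The vit genes encode yolk proteins, which the adult hermaphrodite intestine makes. Scaled counts of vit-6 were 995 in mock 1, 33237 in xrn-2(RNAi) 1, 205640 in xrn-2(RNAi) 2 and 1154357 in mock 2. Those most like col-129 were col-140 (0.37), col-178 (0.45), col-139 (0.56), ule-5 (0.74) and Y62H9A.5 (0.77). Both searches thus found mainly collagens, beside genes of other families with the same order of libraries.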

How the data were processed

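Poly(A) RNA of 4 libraries (2 mock, 2 xrn-2(RNAi)) was analysed. Per the methods, the authors ran QuasR (qAlign, spliced mode) against ce10, sorted the alignments with Samtools and counted reads on the exons of every WS220 gene. They deposited whole-number counts, not normalized, for 20380 genes. How reads that fit several similar collagen genes were handled, and whether strand was used, is not given in the sources used here, and 31 members have an exon that overlaps another gene. The table held 0 columns of other samples. Samples were grouped by their titles.

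Symbols (19179 identifiers matched), exon lengths and neighbours came from the WBcel235 annotation. It is not the build of the files, so no coordinates are given. As the authors did, each library was multiplied to reach the mean total, and log2 differences were taken after adding 8. RPKM values used the summed exon length. Counting error is small at this depth for all but the low genes, and no intervals are given.

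The test was edgeR's quasi-likelihood test (version 4.0.16, R 4.3.3, TMM, filterByExpr) on the whole table, adjusted by Benjamini-Hochberg. The replicate was a block, since the methods take fold changes within a replicate. Deviations of same-numbered libraries from their group means correlated with r = 0.57 across 16178 genes. The SE is the absolute log2 fold change over the square root of F. The fit was tested on simulated counts with 200 changed genes, of which it recovered only a small part at the dispersion estimated here, so a gene that was not called is not shown to be level. With the block, the residual spread is how far the difference between conditions varied between the replicates. The p-values rest on that spread, shared between genes by the fit, and not on the spread between cultures of a condition. DESeq2 1.42.0 was the other tool. Alternatives were other scalings, a pseudocount of 1, no filter on low counts, a minimum of 50 mean scaled reads, no block, no condition term and each replicate alone.

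Members, gene lists and alternatives were chosen with earlier results of these data known. Named genes were col-19, col-129 and others of known role, the 6 with the highest mean level, the 6 with the highest and the lowest difference between the mock libraries, the 5 highest and the 5 lowest in both replicates, those nearest to the minimum, the listed genes, and the 5 nearest patterns. Sequences and the time course were not used here.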

Additional observations from a re-analysis of the deposited data

How the results depend on the processing

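Over both replicates the median log2 difference upon RNAi was 0.91 over the 134 members, and each replicate alone gave 0.54 to 1.25. The tests with the replicate block called 0 members for RNAi against mock, and without the replicate block, which drops the pairing, 0 were called as well. With DESeq2 in place of edgeR, 20 members passed for RNAi against mock and 37 for replicate 2 against replicate 1. Both libraries labelled xrn-2(RNAi) lay below both mock libraries in 3 members, in 5 with TMM scaling and in 6 with median-of-ratios scaling. They lay above both in 41, and in 23 when 50 mean scaled reads were required, which leaves 108 members. The other 61 counts and medians kept within 1.5 times their value or 1 SD.

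Among named genes, the sign upon RNAi reversed without the replicate block for col-109 (-1.07), col-119 (-4.61), col-129 (-3.27), col-138 (-0.17), col-19 (-3.42), col-49 (-0.62), col-63 (-1.05), col-79 (-1.78) and col-81 (-3.53), each far from its threshold. With library totals it reversed for col-139 (0.021) and col-99 (0.076). The difference of col-149 between the replicates was 0.005 with median-of-ratios size factors and 0.002 with DESeq2. The cause of these reversals was not tested. With DESeq2, 17 values of named genes passed the threshold that they missed in edgeR. The comparison of late and early members between the libraries labelled xrn-2(RNAi) was chosen after seeing the data. With the sets formed anew under each setting, 46 of 50 late members were higher and 31 of 49 early members lower in xrn-2(RNAi) 2 with TMM scaling, 47 of 51 and 31 of 49 with median-of-ratios scaling, 50 of 53 and 31 of 55 with a pseudocount of 1, and 41 of 44 and 26 of 44 with the minimum of 50 mean scaled reads.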

Other observations

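Among the col genes below the minimum, col-183 and col-116, both of low count, had most of their reads in xrn-2(RNAi) 2. The former had 0 reads in mock 1, 0 in xrn-2(RNAi) 1, 23 in xrn-2(RNAi) 2 and 9 in mock 2, and the latter had 1, 2, 24 and 10. In col-164 and col-165 no read was counted in mock 2, against 18 and 9 in xrn-2(RNAi) 1 and 17 and 6 in xrn-2(RNAi) 2.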
